A study of Homo sapiens with 4 samples.

Results

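The knockdown response of 2 cell lines was compared gene by gene, and the genes described are those whose response to an siRNA against TMEM161A differed between the lines by at least 2-fold. The study examined TMEM161A, which codes for a transmembrane protein, in colorectal cancer, and it used the lines HT29 and LIM1215, both established from human colorectal cancers. RNA was sequenced from 1 library per group: HT29 with a negative control siRNA (HT29_NC), HT29 with an siRNA targeting TMEM161A (HT29_si2), LIM1215 with the control siRNA (LIM1215_NC) and LIM1215 with the TMEM161A siRNA (LIM1215_si2). No other allele or agent is named in the labels, a single siRNA was used, and the time after transfection is not given in the sources used here. No group had a replicate, so no value has an error between cultures and no test of a difference could be made.

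For each gene the response of a line was taken as the log2 ratio of FPKM plus 1, knockdown over control. FPKM is the number of fragments per kilobase of transcript, scaled to the size of the library. A response past 2-fold means a ratio on this scale. The value d is the LIM1215 response minus the HT29 response. A d of 1 means that the knockdown-to-control ratio was 2-fold higher in LIM1215, which can come from a higher level in the LIM1215 knockdown, a lower level in the HT29 knockdown, or both. Of 60658 genes listed, 9892 were protein-coding and averaged an FPKM of at least 5 across all 4 libraries, and 131 of these (1.32%) passed the threshold. They comprised 66 genes with d of at least 1 (0.667%) and 65 genes with d of at most −1 (0.657%). Because d itself chose these genes, the sizes of d below are a description. After rescaling the libraries to equal FPKM sums, the split was 92 to 56.

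Small interfering RNAs direct the cleavage of a matching mRNA, and the cell then adjusts its transcripts around the loss. Colorectal cancer lines differ widely in how far they keep the programme of the colon epithelium, in their Wnt and growth factor signalling and in their metabolism. A single perturbation can therefore act on different sets of expressed genes in different lines, and a gene that is silent in a line has no transcript there to lose.

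The target and the labels were examined first. The FPKM of TMEM161A was 42.6 with control siRNA and 4.64 with the knockdown in HT29, and 39.1 and 7.61 in LIM1215, so that its d of 0.73 lay inside the threshold. The epithelial genes EPCAM, CDH1, KRT8 and KRT18 were present in all 4 libraries at an FPKM of at least 41.6. However, 5 of 10 markers of colon epithelium had an FPKM under 1 in both libraries labelled HT29. CDX1 was listed at 0 in both, and CDH17, VIL1, KRT20 and LGALS4 did not exceed 0.815, against 67.8 to 398 for these 5 genes in LIM1215. CDX2, the intestinal transcription factor, was present in the HT29 libraries at 8.29 and 8.04, below its 96.8 and 150 in LIM1215. The markers of the labelled tissue were thus present in part in the libraries labelled HT29, and the part this plays in d was not tested. HT29 below stands for the libraries so labelled. Leukocyte, fibroblast and endothelial markers were mostly near 0. Of 16 such genes, 13 were under 1 in all libraries, and the summed FPKM ranged from 6.76 to 74.4 for leukocyte markers, most of it CD68, from 6.03 to 18.2 for fibroblast markers, most of it COL1A1, and from 0.419 to 0.601 for endothelial markers. PTPRC, which defines leukocytes, was listed at 0 throughout. By an estimate from the low values, each unit of FPKM equals 18.1 to 21.5 fragments per kilobase.

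The responses that made up d came from both lines and were mostly moderate in each. Among the 66 genes with d of at least 1, 12 were past 2-fold only as a lower level in the HT29 knockdown, 11 only as a higher level in the LIM1215 knockdown, 1 was past 2-fold in both, in opposite directions, and 42 stayed under 2-fold in each line. Among the 65 genes with d of at most −1, 17 were past 2-fold only as a higher level in the HT29 knockdown, 12 only as a lower level in the LIM1215 knockdown, 1 in opposite directions, and 35 were under 2-fold in each line. Over all tested genes, 0.859% were at least 2-fold higher and 1.08% at least 2-fold lower in the HT29 knockdown, against 0.526% and 0.637% in LIM1215. The median response of the first set was −0.66 in HT29 and 0.59 in LIM1215, and that of the second was 0.74 and −0.50. The choice of members by a difference works against genes that are past 2-fold in the same direction in both lines. There were 0 such members, and 38 of all tested genes (0.384%).

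**Figure D1:**
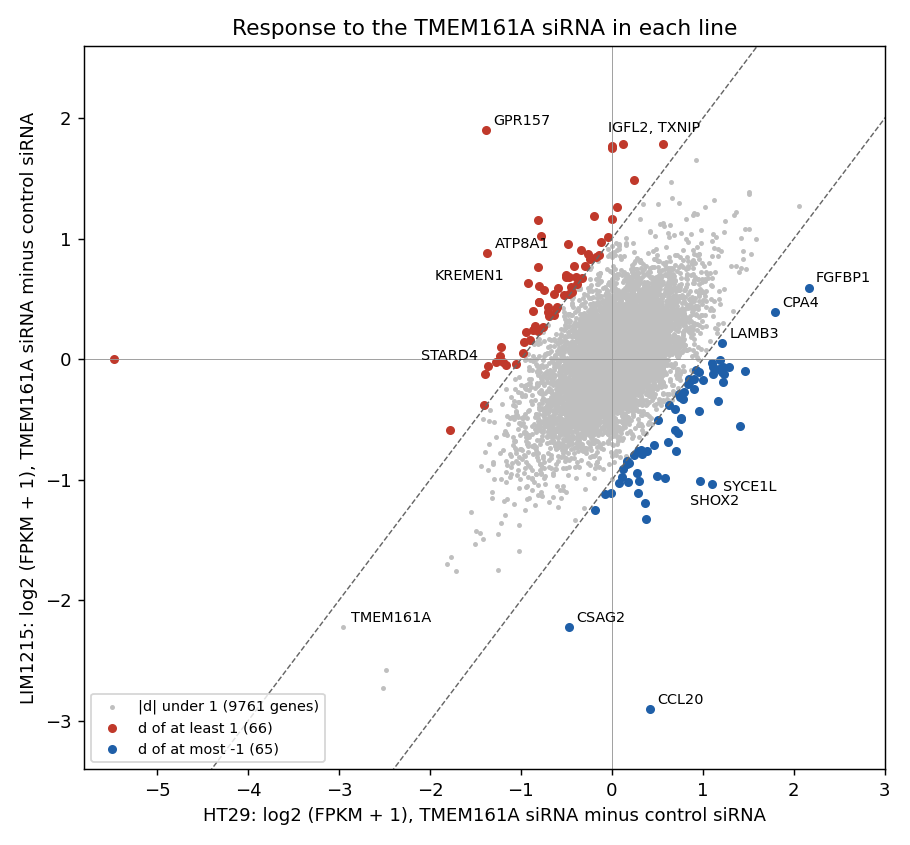
Response in LIM1215 (vertical, log2 ratio of FPKM + 1, knockdown over control) against response in HT29 (horizontal, same scale); each point is 1 gene and the dashed lines mark d of 1 and −1. The 66 genes with d of at least 1 lie above the upper line and the 65 with d of at most −1 below the lower line, with GPR157 and CCL20 among the farthest, while TMEM161A lies between the lines.

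GPR157, which codes for a G protein-coupled receptor (ENSG00000180758), had the highest d among the named genes. Its FPKM in HT29 was 16.4 with the control siRNA and 5.69 with the knockdown, while the LIM1215 values were 10.03 and 40.1. The knockdown library was therefore the lower of the pair in HT29 and the higher in LIM1215, each past 2-fold, with log2 ratios of −1.38 and 1.90 and a d of 3.28 ± 0.15. The range given after each d is the half-width of a 95% counting interval from the estimated fragments, which covers counting error only and not the variation between cultures. ATP8A1, a flippase that moves phospholipids to the inner leaflet of membranes, had FPKM of 1.90 and 0.121 in HT29 and 12.4 and 23.7 in LIM1215, and a d of 2.25 ± 0.14. Its HT29 values were low, an estimated 325 and 21.1 fragments, and its d ranged from 1.15 with a pseudocount of 5 to 4.10 with a pseudocount of 0.1.

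The responses of the lines had opposite signs for 51 of the 66 genes with d of at least 1 and for 58 of the 65 with d of at most −1, which choosing genes by a difference favours, and for 31.3% of all tested genes. LRCH3, a leucine-rich repeat protein, went from 28.7 to 16.4 in HT29 and, in LIM1215, from 9.63 to 20.7 (d 1.80 ± 0.11). CERS5, a ceramide synthase, went from 35.8 to 19.98 in HT29 and, in LIM1215, from 14.9 to 26.1 (d 1.58 ± 0.17). KREMEN1, a Dickkopf receptor that removes the Wnt co-receptor from the cell surface, went from 10.2 to 4.92 in HT29 and, in LIM1215, from 6.81 to 11.1 (d 1.55 ± 0.16). For these 3 genes the HT29 control was the higher control library and the LIM1215 knockdown the higher knockdown library. CORO1A, an actin-binding coronin, and PLEKHB1, a pleckstrin homology protein, had d of 1.41 ± 0.35 and 1.43 ± 0.25 with the same pattern of signs, and that of CORO1A was 0.93 with a pseudocount of 5. MTCP1 had a d of 1.97 ± 0.33, and since its exons overlap those of CMC4 and of a coding gene without a symbol, the assignment of its fragments is uncertain. UBE3D, a ubiquitin ligase, was level in HT29 (4.35 and 4.83) and went from 4.27 to 17.2 in LIM1215, giving a d of 1.66 ± 0.34.

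Some members had little or no transcript in HT29, so that d was mainly the LIM1215 response. Such genes passed the filter on mean FPKM through the LIM1215 libraries. TXNIP, which binds thioredoxin and restrains glucose uptake, was listed at 0 in both HT29 libraries and had FPKM of 17.0 and 59.4 in LIM1215, a log2 ratio of 1.75. IGFL2, a secreted factor of the insulin-like growth factor-like family, was under 0.2 in both HT29 libraries and went from 112 to 384 in LIM1215 (d 1.77 ± 0.51). CLDN1, a tight junction claudin, was at most 0.202 in HT29 and went from 9.78 to 29.2 in LIM1215. Its d of 1.24 ± 0.18 fell to 0.17 with a pseudocount of 0.1, because small HT29 values then weigh more. CAPN8, a calpain of the digestive tract, was at 1.30 and 1.01 in HT29 and at 25.9 and 60.2 in LIM1215 (d 1.38 ± 0.31). In all, 5 genes with d of at least 1 and 4 with d of at most −1 had FPKM under 1 in both HT29 libraries, 7.58% and 6.15% of their sets, against 1.66% of all tested genes.

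Thioredoxin-interacting protein is a known target of the glucose-sensing factors MondoA and ChREBP, which bind a pair of half-sites called a carbohydrate response element. The promoter of TXNIP is shown for that element, found by a search of RefSeq promoters on GRCh38.p14, from 250 bases before to 50 bases after the start site, on both strands with the letters CACGNG, then 5 bases of any kind, then CACGNG, where N is any base. The match lies 88 bases before the start site at chr1:145996645-145996673 on the minus strand, with the matched letters in capitals.
TXNIP: gatgtgCACGAGGGCAGCACGAGcctccg
Of 8134 tested genes with a promoter in the table, 13 (0.16%) held such a match, and TXNIP was the 1 among the 53 with d of at least 1. Of the 8 tested genes in the list of glucose-sensing arrestins and MondoA targets, TXNIP alone passed the threshold (12.5%, against 1.32% of all tested genes). ARRDC3, a related arrestin, had FPKM of 31.0 and 91.3 in HT29 and 13.9 and 26.4 in LIM1215, with a d of −0.65, opposite in sign to that of TXNIP.

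CCL20 and the genes SYCE1L, SHOX2, CSAG2 and FHIT had the lowest d among the named genes. CCL20, the chemokine that attracts CCR6-bearing lymphocytes and dendritic cells (ENSG00000115009), had FPKM of 0.943 and 1.59 in HT29, while LIM1215 had 22.8 with the control siRNA and 2.19 with the knockdown. Only the LIM1215 control stood high, and the 3 other libraries were low. CCL20 passed the filter on mean FPKM (6.88) through the LIM1215 control alone, which favours a low d. Its d of −3.32 ± 0.67 rested in HT29 on an estimated 12.7 and 21.7 fragments. SYCE1L, a homologue of a synaptonemal complex protein, went from 8.13 to 18.6 in HT29 and, in LIM1215, from 5.48 to 2.17 (d −2.14 ± 0.48), past 2-fold in opposite directions, and its exons overlap those of MON1B. SHOX2, a homeobox transcription factor, went from 5.20 to 11.2 in HT29 and, in LIM1215, from 2.88 to 0.922 (d −1.99 ± 0.28), and its exons overlap those of RSRC1. FHIT, a dinucleoside triphosphate hydrolase encoded at a fragile site, went from 14.4 to 19.0 in HT29 and, in LIM1215, from 8.38 to 2.74 (d −1.70 ± 0.23). CSAG2, a cancer-testis gene with near-identical copies on chromosome X, rested on 8.97 estimated fragments in the LIM1215 knockdown (d −1.75 ± 0.54, and −0.69 with a pseudocount of 5), and the assignment of fragments among the copies is uncertain.

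**Figure D2:**
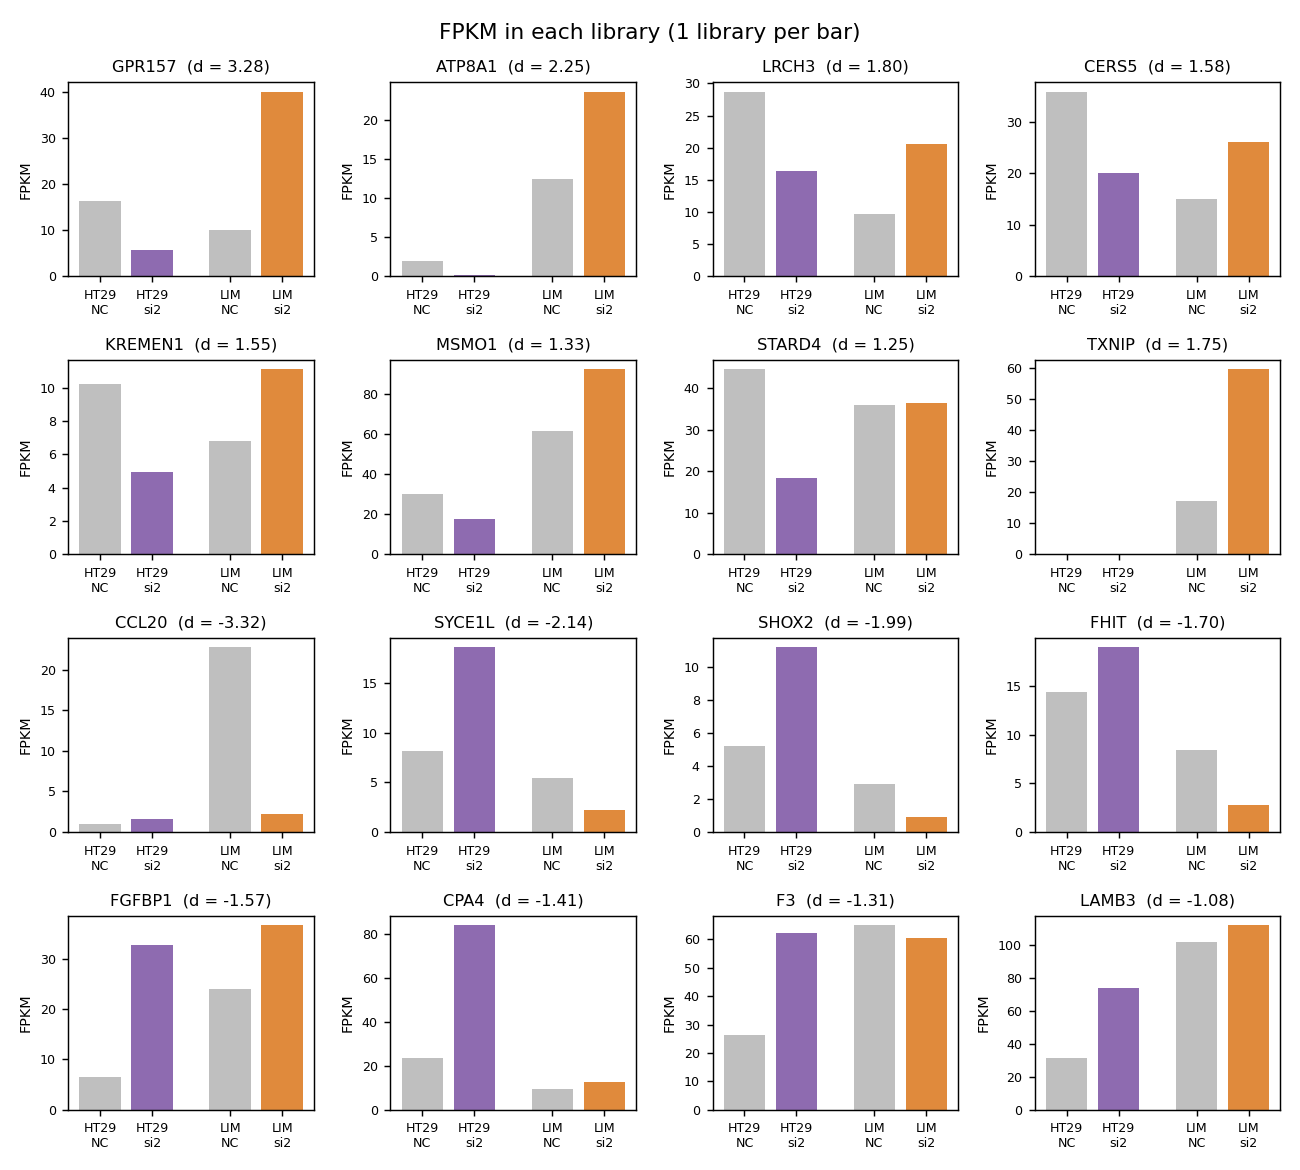
FPKM (vertical, linear scale from 0) of 16 named genes in the 4 libraries, 1 bar per library; NC is the control siRNA and si2 the TMEM161A siRNA, and d is given above each panel. GPR157, LRCH3, CERS5 and KREMEN1 are lower in the HT29 knockdown and higher in the LIM1215 knockdown than in the controls, CCL20 is high only in the LIM1215 control, and FGFBP1, CPA4, F3 and LAMB3 are higher in the HT29 knockdown than in the HT29 control by more than 2-fold.

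Several genes with d of at most −1 had the larger response in HT29. FGFBP1, a carrier that releases fibroblast growth factors from the matrix, went from 6.49 to 32.6 in HT29 and, in LIM1215, from 24.0 to 36.7 (d −1.57 ± 0.27). CPA4, a secreted carboxypeptidase, went from 23.5 to 84.1 in HT29 and, in LIM1215, from 9.53 to 12.8 (d −1.41 ± 0.18). F3, tissue factor, the cell-surface starter of coagulation, went from 26.3 to 62.0 in HT29 and was level in LIM1215 at 65.0 and 60.5 (d −1.31 ± 0.12). For FGFBP1 and F3, the HT29 control was the low library and the HT29 knockdown came close to a LIM1215 library. LAMB3, the beta chain of the basement membrane protein laminin-332, also had the larger response in HT29. It went from 31.3 to 74.1 in HT29 and, in LIM1215, from 102.2 to 112.1 (d −1.08 ± 0.08). After rescaling the libraries to equal FPKM sums, LAMB3 stayed past the threshold at −1.01, and with a pseudocount of 5 it lay just inside it at −0.99.

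The receptors of laminin-332 leaned the same way with smaller differences. In a group of 9 tested genes for this laminin and its receptors, assembled after the values were seen, 8 had a d below 0 and the median was −0.45, against −0.03 over all tested genes. Of all 9892 tested genes, 5363 had a d below 0. ITGA3 (d −0.56), ITGA6 (−0.45), ITGB1 (−0.43) and ITGB4 (−0.36), the integrin chains that bind it, were each inside the threshold. In the wider list of invasion, matrix and epithelial-mesenchymal genes, 2 of 27 tested genes (7.41%) had d of at most −1, LAMB3 among them. The share of all tested genes was 0.657%. None of the 27 had d of at least 1, against 0.667% of all tested genes, and the median of the list was −0.25. The median response of this list was 0.19 in HT29 and 0.05 in LIM1215. PLAUR, the urokinase receptor, had log2 ratios of 0.52 and −0.36, and its d of −0.87 lay inside the threshold.

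Promoters of genes that were higher in the HT29 knockdown were searched for the AP-1 motif, bound by Jun and Fos proteins downstream of growth factor signalling. The letters were TGANTCA, which read the same pattern on both strands, in the same RefSeq windows. A match was found in 4 of 14 promoters (28.6%) of genes with d of at most −1 and at least a 2-fold higher level in the HT29 knockdown, in 5 of 53 (9.43%) of all genes with d of at most −1, in 2 of 53 (3.77%) with d of at least 1 and in 331 of 8134 (4.07%) of tested genes. The subset of 14 was chosen after its values were seen, and 7 motifs were searched in all, each on both strands. The letters were TCAC, any base, then CCAC for the sterol response element, CTTTGAT for TCF/LEF, GGAATG for TEAD and CACGTG for the E-box. The sterol response element was found in 1 of 53 promoters of each set (1.89%) against 0.971% of all, the TCF/LEF motif in 2 of 53 promoters with d of at least 1 (3.77%) and 0 of 53 with d of at most −1 against 1.28%, and the TEAD motif and E-box in 5.66% each with d of at least 1 and in 7.55% and 11.3% with d of at most −1, against 10.5% and 10.9%. In the subset of 14, TEAD was found in 2 promoters, the E-box in 1 and each remaining motif except AP-1 in 0. Of 9 promoters with d of at least 1 and at least a 2-fold lower level in the HT29 knockdown, AP-1 was in 0. TCF/LEF, TEAD and the E-box were each in 1. Genes at least 2-fold higher in the HT29 knockdown whatever their d were not counted as a set, so the AP-1 share cannot be tied to d. All are counts of letters, not of bound sites. The promoters of CPA4 and F3 each hold a pair of matches before the start site, shown here with the motif in capitals and 6 bases on each side. The CPA4 windows lie at chr7:130293107-130293125 and chr7:130293140-130293158 on the plus strand, and the F3 windows, which overlap each other, at chr1:94541970-94541988 and chr1:94541957-94541975 on the minus strand.
CPA4 first: aggactTGAGTCActctca
CPA4 next: acagctTGACTCAgccact
F3 first: cgcggtTGAATCActgggg
F3 next: ctggggTGAGTCAtccctt

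Cholesterol synthesis differed between the lines more than any other of the 37 lists in the direction of LIM1215. All 25 of its genes were tested and 20 had a d above 0, against 4529 of all 9892 tested genes. The median d was 0.45, against −0.03 over all tested genes. The median response was −0.13 in HT29 and 0.08 in LIM1215. MSMO1, which removes methyl groups from the sterol ring, went from 29.9 to 17.4 in HT29 and, in LIM1215, from 61.5 to 92.4 (d 1.33 ± 0.14). STARD4, a carrier of cholesterol between membranes, went from 44.6 to 18.5 in HT29 and was level in LIM1215 at 35.9 and 36.6 (d 1.25 ± 0.10). These 2 genes were past the threshold, 8% of the list against 1.32% of all tested genes. HMGCS1, which makes HMG-CoA, came nearest of the others with log2 ratios of −0.44 and 0.37 and a d of 0.81. SREBF2, the transcription factor that controls the pathway, had log2 ratios of −0.13 and 0.36. SQLE, squalene epoxidase, was an exception to the divergence, since it was far lower in both knockdowns, from 27.3 to 3.95 in HT29 and, in LIM1215, from 56.6 to 7.70, and had a d of −0.21. The 5 genes with d below 0 were all inside the threshold. All 25 genes were expressed in both lines, at an FPKM of 3.95 or more in each library.

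Lipid genes outside the cholesterol list did not share a direction. ELOVL6, an elongase of long-chain fatty acids, went from 25.2 to 11.1 in LIM1215 and was level in HT29 at 51.9 and 49.1 (d −1.03 ± 0.10). Its d lay inside the threshold at −0.97 after rescaling and at −0.83 with a pseudocount of 5. It was the 1 of 24 tested genes (4.17%) of fatty acid synthesis and lipid droplets past the threshold, against 1.32% of all tested genes. The median of that list was 0.08. In a group of 21 sphingolipid genes assembled after the values were seen, CERS5 (1.58) and SMPDL3A, a phosphodiesterase (1.07), had d of at least 1, and FA2H, which hydroxylates the fatty acids of sphingolipids, had d of −1.03. These genes made up 14.3% of the group, against 1.32% of all tested genes, which a choice made after seeing the values favours. The related ceramide synthases CERS2 (0.04) and CERS6 (−0.01) had d near 0. Among 11 flippase genes, likewise assembled after the values were seen, ATP8A1 and TMEM30A passed the threshold. They made up 18.2% of the group, against 1.32% of all tested genes. Both values were known when the group was assembled, so this share is not evidence of a shared response. TMEM30A is the subunit that most flippases, ATP8A1 included, need to leave the endoplasmic reticulum. It went from 31.0 to 13.3 in HT29 and was level in LIM1215 at 17.7 and 17.1 (d 1.12). The other 9 had d from −0.60 for ATP9B to 0.51 for ATP8B1, and the median of the group was 0.04.

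NF-kB targets and chemokines had the lowest median d of the 37 lists. Of 20 tested genes, 16 had a d below 0, against 5363 of all 9892 tested genes. The median of the list was −0.45, and CCL20 alone was past the threshold, 5% of the list against 1.32% of all tested genes. The median response was 0.16 in HT29 and −0.16 in LIM1215. LCN2, an iron-scavenging defence protein, came next to CCL20 with log2 ratios of 0.72 and −0.24 (d −0.96), followed by TNFAIP3, the A20 feedback inhibitor, with −0.14 and −0.89 (d −0.75). The inhibitor NFKBIA and the subunit NFKB1 were higher in the HT29 knockdown (0.43 and 0.71) and near level in LIM1215 (0.02 and 0.17). CXCL1, a neutrophil chemokine, was lower in the LIM1215 knockdown, as CCL20 was, going from 69.3 to 30.7. It was also lower in the HT29 knockdown, from 15.8 to 7.96, and had a d of −0.24. In HT29, CCL20 was near the floor at 0.943 and 1.59, so a fall there could hardly be seen. NFKBIZ (0.61), CXCL8 (0.30), CXCL2 (0.28) and ICAM1 (0.27) were the 4 genes with d above 0.

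CCL20 is a well-known NF-kB target, and its promoter is shown for that motif. The search used the letters GGG, then 2 bases of any kind, then TTTCC, on both strands of the same windows. The match, which reads on the minus strand of the gene, lies 79 bases before the start site at chr2:227813757-227813778 on the plus strand, with the match in capitals.
CCL20: caatggGGAAAACCCCatgtgg
A match was found in 1 of 53 promoters (1.89%) with d of at most −1, in 2 of 53 (3.77%) with d of at least 1 and in 182 of 8134 (2.24%) of tested genes, so the shares of the members lay near that of all genes.

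Of the Wnt targets, NKD1 was past the threshold. NKD1, which binds Dishevelled and dampens Wnt signalling, went from 2.94 to 1.27 in HT29 and, in LIM1215, from 8.58 to 12.3 (d 1.27 ± 0.12). It was the 1 of 17 tested Wnt targets (5.88%) past the threshold, against 1.32% of all tested genes, and the median of the list was 0.03. Its d was 0.69 with a pseudocount of 5, inside the threshold, and 1.67 with a pseudocount of 0.1. AXIN2, a common readout of the pathway, had log2 ratios of −0.30 and 0.08 (d 0.38). Among 19 tested Wnt receptors and their regulators, a group assembled after the values were seen, FZD3, a Frizzled receptor, was the other member besides NKD1 and KREMEN1 with d of at least 1. It went from 8.78 to 2.72 in HT29 and was near level in LIM1215 at 6.81 and 6.19 (d 1.27). Of the 19, 15.8% were past the threshold, against 1.32% of all tested genes, which a choice made after seeing the values favours. The median of the 19 was 0.10.

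Other members of the lists were single genes. With d of at least 1, HLA-F, a nonclassical class I molecule, went from 14.7 to 10.1 in HT29 and, in LIM1215, from 60.9 to 99.5 (d 1.20 ± 0.22), while the classical HLA-B and HLA-C, abundant in both lines, had d of 0.40 and 0.23. CYP2S1, an extrahepatic cytochrome P450, went from 14.4 to 10.1 and 111.3 to 178.9 (d 1.15 ± 0.16). With d of at most −1, SLC1A4, a neutral amino acid transporter, went from 30.6 to 15.5 in LIM1215 and was at 2.96 and 3.78 in HT29 (d −1.21 ± 0.20). CD55, which protects cells from complement, went from 256 to 129.5 in LIM1215 and was level in HT29 at 28.3 and 30.5 (d −1.08 ± 0.11). PI3, the elastase inhibitor elafin, was at 0 and 0.124 in HT29 and went in LIM1215 from 35.0 to 18.7 (d −1.04 ± 0.43). PMEPA1, a feedback inhibitor of TGF-beta signalling, went from 0.773 to 2.01 in HT29 and, in LIM1215, from 25.6 to 17.9 (d −1.26 ± 0.21). IGF1R, the receptor of insulin-like growth factors, went from 5.88 to 10.6 and from 10.8 to 8.52 (d −1.06 ± 0.11). DDX10, an RNA helicase of ribosome assembly, went from 14.7 to 35.6 in HT29 and was level in LIM1215 at 18.0 and 17.2 (d −1.29 ± 0.16). With a pseudocount of 5, d lay inside the threshold for SLC1A4 (−0.94), PI3 (−0.79), PMEPA1 (−0.70) and IGF1R (−0.74), and with a pseudocount of 0.1 that of PI3 was −2.06.

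The remaining named genes were of diverse function. ZNF33B, a zinc finger gene, went from 12.2 to 35.4 in HT29 and, in LIM1215, from 17.7 to 16.5 (d −1.57 ± 0.12). RNF170, a ubiquitin ligase of the endoplasmic reticulum, went from 5.64 to 13.96 in HT29 and, in LIM1215, from 19.2 to 14.9 (d −1.52 ± 0.18). PLCXD1, in the pseudoautosomal region, went from 5.07 to 13.1 in HT29 and, in LIM1215, from 15.8 to 13.8 (d −1.41 ± 0.16). TCEA2, a transcription elongation factor, and CD163L1, a scavenger receptor whose exons overlap those of CD163, had the larger response in LIM1215, with log2 ratios there of −1.19 and −1.11. STPG4, CCDC180 and PRKCH, a protein kinase C, had d from −1.56 to −1.46, and their log2 ratios of FPKM plus 1 were inside 1 and −1 in each line. Without the added 1, their LIM1215 knockdown levels were 0.414, 0.382 and 0.486 times the control. With a pseudocount of 5, d was inside the threshold for PLCXD1 (−0.997), STPG4 (−0.93), CCDC180 (−0.79), PRKCH (−0.94), TCEA2 (−0.98), CD163L1 (−0.93), ITGB3BP (0.90) and RPL17-C18orf32 (0.96). The exons of PRKCH overlap those of TMEM30B and of a coding gene without a symbol, as do those of STPG4 with another such gene. ITGB3BP, a centromere protein, and the readthrough transcript RPL17-C18orf32 were lower in the HT29 knockdown (log2 ratios −1.36 and −1.22) and near level in LIM1215 (−0.06 and 0.10), and their exons overlap those of EFCAB7 and PGM1, and of RPL17 and C18orf32. Close to the threshold of 1, TAF4 (1.001) and MBD4 (1.005) were just past it, and ERN2 (0.992) and LCAT (0.987) fell just short. Close to that of −1, HOXA3 (−1.004) was just past it, and ADGRF1 (−0.998) and MESP1 (−0.997) fell just short. Among these, MBD4, ERN2 and LCAT share exon sequence with IFT122, PLK1 and SLC12A4. The largest d of all, 5.47, belonged to a coding gene without a symbol and with a transcript of 489 bases that overlaps ERBB3 and PA2G4. It was at 43.3 in the HT29 control and listed at 0 in the 3 other libraries, so no fold is given. It passed the filter on mean FPKM through the HT29 control alone, which favours a high d.

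In 21 of the 37 lists no tested gene passed the threshold, and the medians of the lines were near each other in some of these lists and apart in others. The S phase list (44 tested genes) had median responses of −0.56 in HT29 and −0.59 in LIM1215 and a median d of 0.01, ER chaperones and ERAD genes (28 tested) of −0.74 and −0.71 and a median d of 0.05, and G2 and M phase genes (43 tested) of −0.47 and −0.42 and a median d of −0.08. Targets of p53 (29 tested) had medians of 0.40 and 0.46 and a median d of 0.14. None of these 4 lists had a gene past the threshold on d. The median response of histone genes was 0.41 in HT29 and 0.04 in LIM1215, and that of ribosomal proteins 0.28 and 0.07. Of the cytosolic ribosomal proteins, 60 of 65 had a d below 0, against 5363 of all 9892 tested genes. Their median was −0.18 and their lowest value was inside the threshold. Ribosome biogenesis genes had a median of −0.24, with 33 of 40 below 0 and DDX10 past the threshold. S100 and annexin genes (median −0.35, 12 of 15 below 0), keratins (−0.40, 6 of 9) and histone genes (−0.27, 10 of 11) also had medians below 0, with none past the threshold. After rescaling the libraries to equal FPKM sums, the median of all tested genes moved from −0.03 to 0.04, and 4432 of all 9892 had a d below 0. The number below 0 became 57 of 65 ribosomal proteins, 30 of 40 ribosome biogenesis genes, 12 of 15 S100 and annexin genes, 5 of 9 keratins and 8 of 11 histone genes. The list of colonocyte differentiation and brush border genes (20 tested, median d 0.15) included 11 genes with FPKM under 1 in both HT29 libraries. The HT29 response of these genes rests on values near 0. The median d of this list was −0.003 with a pseudocount of 0.1 and 0.24 with a pseudocount of 5. In all, 19 of the 131 members (14.5%) were in a list, as were 8.17% of tested genes, so that the lists describe a minority of the members.

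**Figure D3:**
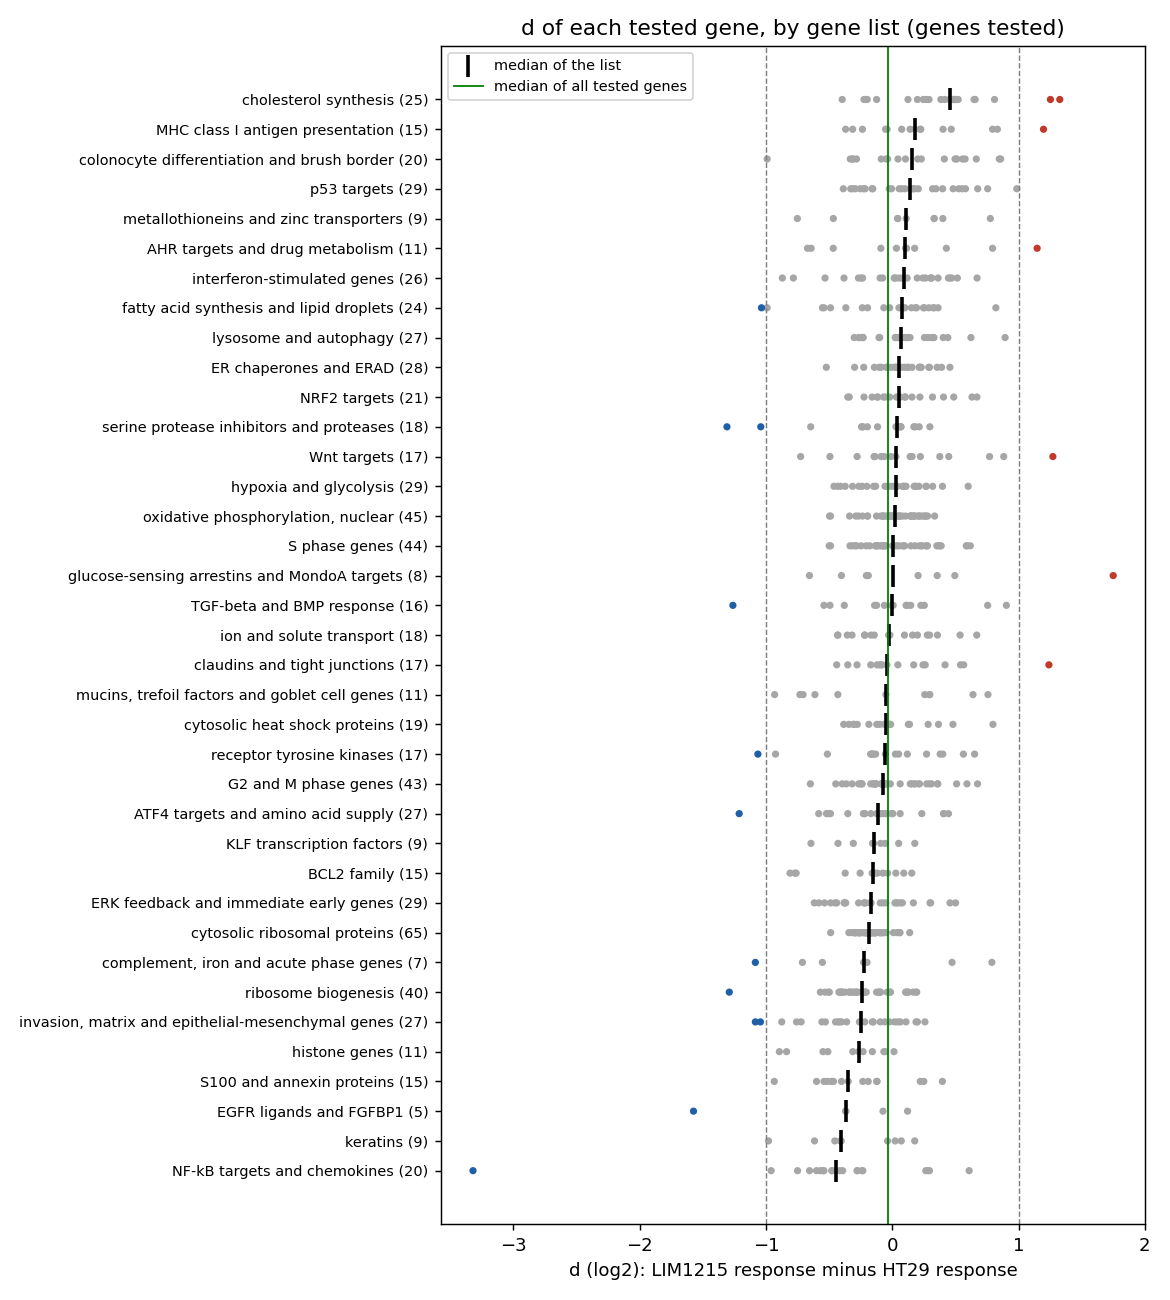
d of each tested gene (horizontal, log2) for 37 gene lists, ordered by their median; each point is 1 gene, the black tick is the median of the list, the green line the median of all tested genes and the dashed lines mark d of 1 and −1. Cholesterol synthesis has the highest median (0.45) and NF-kB targets and chemokines the lowest (−0.45), and most lists lie near 0 with none or 1 gene past a dashed line.

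The last question was how d relates to the level of a gene. The share of genes past the threshold was highest among weakly expressed genes. It was 3.09% of 1846 genes with a mean FPKM from 5 to 10, 1.67% from 10 to 20, 0.735% from 20 to 50, 0.534% from 50 to 100, and 0.262% of 1143 genes at 100 or more. The typical size of d fell less, from a median absolute value of 0.26 in the lowest class to 0.16 in the highest. The median half-width of the counting interval went from 0.22 to 0.07 over the same classes. In the lowest class it was thus below the median absolute d of 0.26. The half-width marks the edge of the interval and is larger than a typical counting error. The part of a typical d that is counting error was not tested. The counting interval of d lay beyond 0 for all 66 genes with d of at least 1 and for 64 of the 65 with d of at most −1, which the choice of genes by the size of d favours, and for 62.1% of all tested genes. It lay wholly past the threshold for 27 and 28 of the members. The member whose interval included 0 was a gene without a symbol whose transcript has 222 bases.

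The difference in level between the lines was examined with the mean log2 level over both siRNAs. The same 4 libraries give this level and d, so shares by class are given and no correlation. Of 6248 genes whose lines differed by less than 0.5 on the log2 scale, 0.768% passed the threshold, 26 with d of at least 1 and 22 with d of at most −1. Of 395 genes at least 4-fold higher in LIM1215, 6.84% passed, 19 with d of at least 1 and 8 with d of at most −1. Of 56 genes at least 4-fold higher in HT29, 10.7% passed, 1 with d of at least 1 and 5 with d of at most −1. In both of these classes, more of the genes past the threshold had the higher knockdown-to-control ratio in the line with more of the transcript. The genes whose lines differed by less than 0.5 made up 63.2% of tested genes and held 48 of the 131 members (36.6%). Whether this rests on level or on the low counts that go with it was not tested. The median control levels of the genes with d of at least 1 were 10.33 in HT29 and 10.33 in LIM1215, and those of the genes with d of at most −1 were 7.46 and 12.2, against 21.8 and 24.2 over all tested genes. In the control libraries, 21 of the 66 and 20 of the 65 (31.8% and 30.8%) were at least 2-fold higher in LIM1215, and 10 and 8 (15.2% and 12.3%) were at least 2-fold higher in HT29, against 10.2% and 5.06% of all tested genes.

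**Figure D4:**
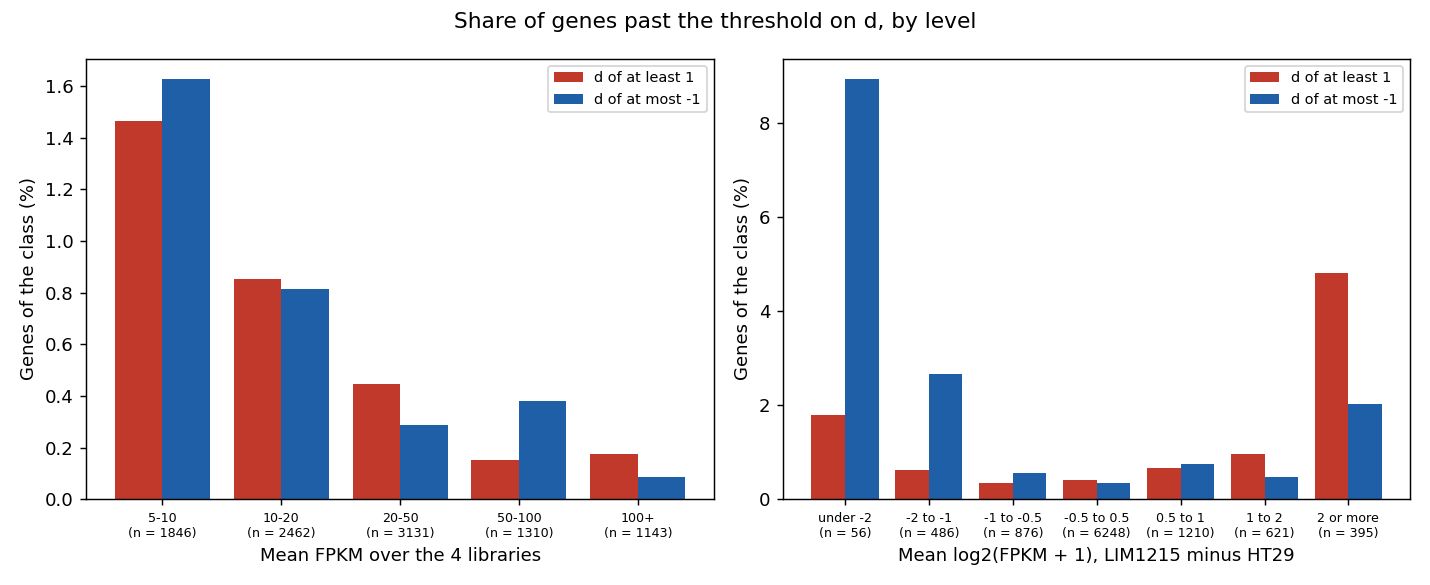
Percent of tested genes with d of at least 1 (red) or at most −1 (blue), by mean FPKM over the 4 libraries (left) and by the mean log2 difference in level between LIM1215 and HT29 over both siRNAs (right), with the number of genes n under each class. The shares fall from the class of 5 to 10 FPKM to that of 100 or more, and are highest where the lines differ by at least 4-fold.

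Features of the gene model differed little between the sets. The median length of the canonical transcript was 3505 bases for d of at least 1 and 3116 bases for d of at most −1, against 3230.5 bases over all tested genes. Exons overlapped those of another coding gene in 24.2% and 24.6% of the sets, against 33.5% of tested genes. Members lay on most chromosomes. Chromosome 17 held none among 639 tested genes and chromosome 21 none among 94, and chromosome 20 had the highest share, 2.84% of 282.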

How the data were processed

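The 4 groups of 1 library each were compared, grouped by sample title. The authors deposited FPKM per Ensembl gene identifier. Per the submitters' processing notes, HISAT2 2.1.0, SAMtools 1.20, Cufflinks 2.2.1 and Cuffdiff were used with GRCh38, in roles not given in the sources used here, and whether counting used the strand of the library kit is not given either. Symbols, biotypes, positions and canonical transcripts came from GENCODE release 44 (GRCh38), which matched 56550 of 60658 identifiers. The log2 ratios and d used a pseudocount of 1, which understates changes of low genes, and no p-value was possible. Calculations used Python 3.11.15, pandas 2.3.3 and numpy 2.4.6, and were tested on simulated data. Depth was estimated by finding, for single-transcript genes of at least 500 bases, the fragments per kilobase at which most low FPKM are whole numbers within 0.03. This held for 78.2% to 80.2% of values.

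Named genes were the 15 highest and 15 lowest d among genes with a unique symbol and a transcript of at least 500 bases, genes past 2-fold in opposite directions, list genes past the threshold, the 2 genes on each side of each threshold, and TMEM161A. Other named genes were chosen after their values were seen. The members and gene lists were chosen with earlier results of these data known. Alternatives were a pseudocount of 0.1 or 5, other filters, gene types and thresholds, a common sum per library, upper quartile scaling and centring. Some results that this rule names are not reported here.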

Additional observations from a re-analysis of the deposited data

Results flagged for a closer look

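GPR157 and SYCE1L were past 2-fold in opposite directions in the 2 lines. The d of GPR157 was 3.28 and that of SYCE1L −2.14. Each line had 1 library per siRNA, so neither difference was tested. GPR157 rested on an estimated 611.9 to 4066 fragments per library and SYCE1L on 37.7 to 343.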

How the results depend on the processing

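The number of genes with d of at least 1 (66) and at most −1 (65) depended on the pseudocount, the filter and the threshold. It was 108 and 105 with a pseudocount of 0.1, 20 and 18 with a pseudocount of 5, 147 and 140 with a mean FPKM of at least 1, 39 and 35 with a mean FPKM of at least 10, and 187 and 173 with no filter. It was 110 and 125 with all gene types, and 10 and 11 with a threshold on d of 1.5. With a pseudocount of 5, 38 of the 131 members were still past the threshold, and with a common sum per library 120 were. With FPKM of at least 1 in all 4 libraries, an alternative chosen after seeing the data, it was 57 and 57. No named gene past the threshold changed sign under the pseudocounts, scalings and centring tried. No paired analysis was possible because each group has 1 library. Leaving out a library was not possible for the same reason. Depth limits d where a line has few fragments, as for CCL20 in HT29.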
